A study of Mus musculus with 6 samples.

Results

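Antioxidant enzymes and metallothioneins were examined in the gastrocnemius muscle of young and aged mice. The list held 10 genes, namely the superoxide dismutases Sod1, Sod2 and Sod3, catalase (Cat), the glutathione peroxidases Gpx1 and Gpx3, the quinone reductase Nqo1, haem oxygenase 1 (Hmox1) and the metallothioneins Mt1 and Mt2. A gene was taken when a probe that was not a control carried an accession of that gene. All 10 were on the array, with 13 probes, among 21368 genes with a symbol. The young group was 3 male mice of 13 weeks and the aged group 3 male mice of 26 months, C57BL/6J according to the methods, with no treatment or transgene named. Total RNA of each muscle was hybridized to 1 single-colour Agilent array. The tissue is a mixture of cells, so fewer cells of a type and less RNA per cell cannot be told apart.

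Superoxide dismutases turn superoxide into hydrogen peroxide, which catalase and the glutathione peroxidases then remove. Nqo1 and Hmox1 belong to the genes that the transcription factor Nrf2 induces under oxidative or electrophilic stress. Metallothioneins are small cysteine-rich proteins that bind zinc and copper, and their genes respond to metals through the factor Mtf1 and to glucocorticoids. Contracting muscle produces superoxide and peroxide, and metallothionein mRNA is known to be high in wasting muscle.

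For each gene the processed signal was divided by the 75th percentile of the array, and this relative signal was compared on the log2 scale. Mt2 was 5.91-fold higher in aged mice, the largest difference among the 10 genes. Hmox1 (2.29-fold) and Mt1 (2.25-fold) were also higher on average, and Sod1 (0.691-fold) and Sod2 (0.735-fold) were lower. With limma over the 20901 genes tested, 0 of the 10 genes had an adjusted p under 0.05, where 0.254% of all genes did (0.196% higher and 0.0574% lower in aged mice). At an unadjusted p under 0.05 there were 3 of 10 (Mt2 and Nqo1 higher, Sod2 lower), against 14.4% of all genes (6.07% higher and 8.38% lower). Every aged mouse lay outside the range of the young mice for 4 of 10 genes, Mt2 and Nqo1 above it and Sod1 and Sod2 below it, against 21.8% of all genes (7.92% above and 13.9% below). The mean was higher in aged mice for 6 of 10 genes, and for 43.1% of all genes. The median log2 fold change was 0.32 over the 10 genes and -0.06 over all genes tested. With 3 mice in each group, 0.1 is the smallest p that an exact two-sided permutation test allows.

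**Figure D1:**
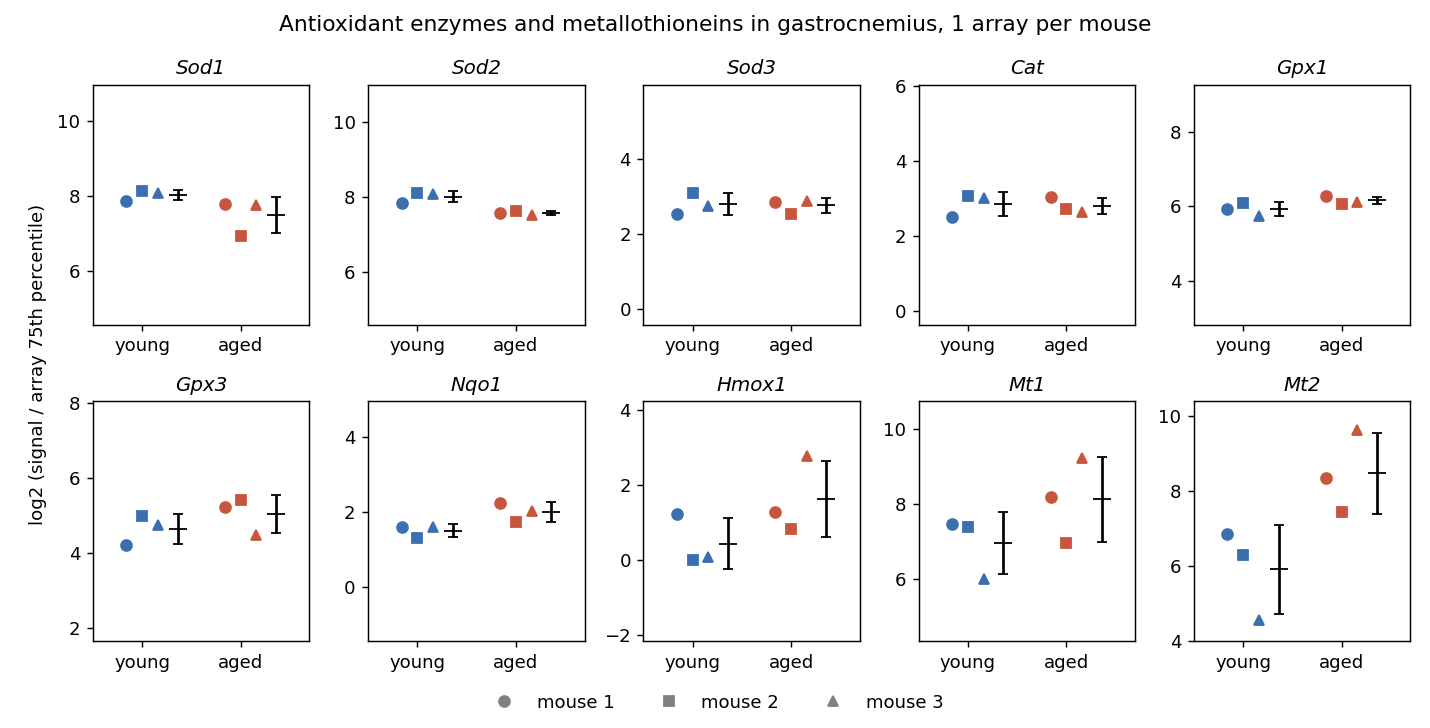
Relative signal of each gene on the log2 scale (y axis, 0 is the 75th percentile of an array) in 3 young (blue) and 3 aged (red) mice, 1 point per mouse, with the mean ± SD in black. Every panel spans the same number of log2 units. The aged mice lay above all young mice for Mt2 and Nqo1 and below them for Sod1 and Sod2, and the points were most spread for Mt1, Mt2 and Hmox1.

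The arrays were of similar quality. On each array 48.7% to 53.8% of probes had a signal well above background, and 0 were saturated. The 75th percentile of the signal was 210 to 299.9 in young and 271 to 311 in aged mice. All 10 genes were detected in this sense in every mouse. The arrays shared 1 slide, with the young mice and aged mouse 1 in row 1 and aged mice 2 and 3 in row 2. Fitting the row as a block therefore compares aged mouse 1 with the young mice. Of the skeletal myofibre markers 11 of 12 could be tested (all but Tnni2), all detected in every mouse, and 0 of 11 were higher on average in aged mice. Their summed relative signal was 7405 to 8941 in young and 6214 to 7942 in aged mice.

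Mt1 and Mt2 are neighbouring genes, and Mtf1 acts through the metal response element, whose core was searched here as TGCACNC or TGCGCNC on both strands. The 300 bases around each start (250 before and 50 after, RefSeq, GRCm38.p6, plus strand) are shown because these are the members with the largest differences between mice. Capitals mark the matches to the core.
Mt1 (chr8:94178839-94179138): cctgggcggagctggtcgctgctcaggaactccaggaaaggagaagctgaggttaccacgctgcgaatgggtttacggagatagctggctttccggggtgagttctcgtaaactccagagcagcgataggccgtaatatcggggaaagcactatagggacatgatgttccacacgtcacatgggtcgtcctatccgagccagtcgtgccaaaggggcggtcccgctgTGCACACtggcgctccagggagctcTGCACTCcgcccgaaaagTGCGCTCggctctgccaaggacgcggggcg
Mt2 (chr8:94172368-94172667): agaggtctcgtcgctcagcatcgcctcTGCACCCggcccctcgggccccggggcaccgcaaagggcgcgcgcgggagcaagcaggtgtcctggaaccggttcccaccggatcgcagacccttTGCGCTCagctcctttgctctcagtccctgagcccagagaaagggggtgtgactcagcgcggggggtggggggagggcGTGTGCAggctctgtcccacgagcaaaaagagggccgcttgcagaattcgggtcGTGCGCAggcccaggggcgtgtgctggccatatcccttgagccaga

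The Mt1 window held 3 matches, all on the plus strand, and the Mt2 window held 4, of which 2 were on the minus strand. Relative to the annotated start, the Mt1 matches began at -23, 2 and 20. Those of Mt2 began at -223, -128, -50 and 4, so that some matches of both genes lay after the start. At least 1 match was present in 25.7% of 32851 windows of the same length, at least 3 in 1.97% and at least 4 in 0.517%. No match overlapped another. The core of the antioxidant response element, searched as TGACNNNGC on both strands, occurred 1 time in the Mt2 window and 1 time in that of Sod1, and in 12.4% of all windows at least 1 time. Windows of 8 of the 10 genes were matched, and those of Cat, Gpx1, Gpx3, Nqo1 and Sod2 held 0 matches to either core. Sod3 and Hmox1 were not among the windows used. These matches are descriptions of the letters only.

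Mt2 (NM_008630) had a relative signal of 116, 79.0 and 23.7 in young mice 1 to 3 and of 325, 175 and 784 in aged mice 1 to 3. The lowest aged mouse was above the highest young mouse, although the young mice themselves differed by 4.88-fold and the aged mice by 4.48-fold. On the log2 scale the level was 5.91 ± 1.19 (SD, n = 3) in young and 8.47 ± 1.09 (SD, n = 3) in aged mice, a difference of 2.56 (standard error 0.73, adjusted p = 0.216 and unadjusted p = 0.0101 from limma). Of the 20901 genes tested, 70 had a larger increase. The difference was 1.89 without young mouse 3, 1.99 without aged mouse 3 and 2.44 with the slide row as a block.

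Mt1 (NM_013602) had a relative signal of 178, 166 and 64.0 in young mice and of 289, 124 and 599 in aged mice. The groups overlapped, since aged mouse 2 was below young mice 1 and 2. The log2 level was 6.95 ± 0.82 (SD, n = 3) in young and 8.12 ± 1.13 (SD, n = 3) in aged mice. The difference was 1.17 (standard error 0.63, adjusted p = 0.443 from limma). This value depended on single mice, and was 0.62 without aged mouse 3, 0.70 without young mouse 3 and 1.75 without aged mouse 2. Another Mt1 probe carries the accession XM_006530752, a predicted transcript of the gene. Its relative signal was 0.251 and 0.779 in young mice 1 and 2, not well above background in young mouse 3, and 3.41, 0.499 and 3.29 in aged mice.

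Within each group the mice had the same order for Mt1 and Mt2. Among the aged mice the order was mouse 3, mouse 1 and mouse 2 from high to low, and among the young mice it was mouse 1, mouse 2 and mouse 3. The spread among the young mice was wide for both genes. The log2 range of the young mice was at the 98.6th percentile of all genes tested for Mt2 and at the 94.4th for Mt1. Within a mouse, the log2 value of Mt2 minus that of Mt1 was -0.62, -1.07 and -1.43 in young mice and 0.17, 0.49 and 0.39 in aged mice. These values did not overlap. Their means differed by 1.39 (2.62-fold, exact two-sided permutation p = 0.1, the smallest possible with 3 mice against 3). This difference was computed after the values of both genes were seen, and it does not say which mRNA was more abundant.

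**Figure D2:**
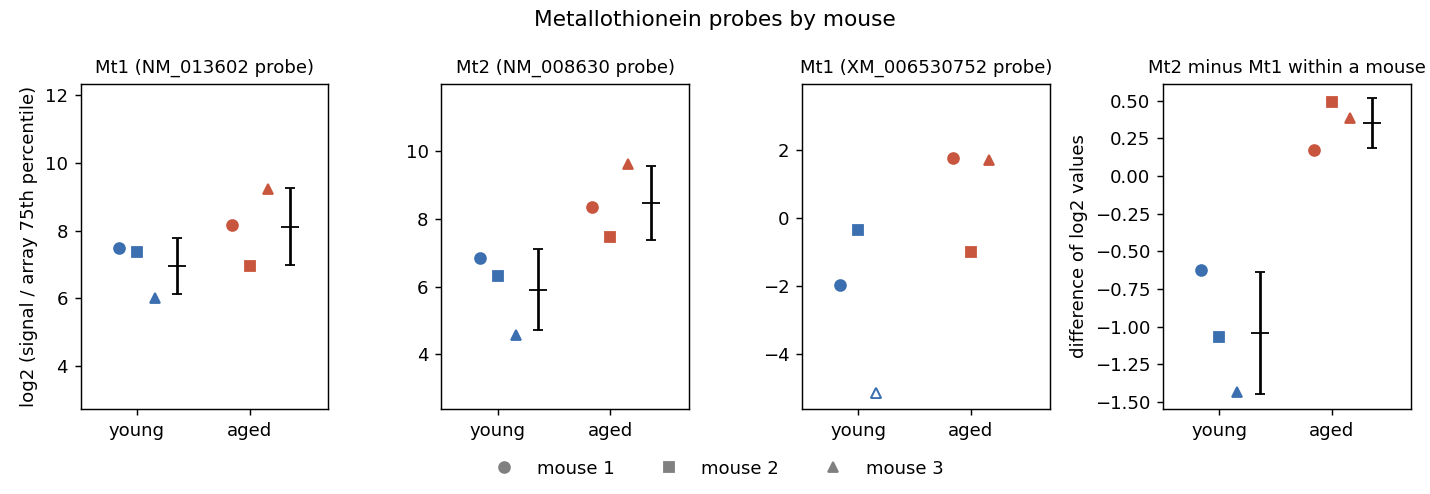
Log2 relative signal of the Mt1 and Mt2 probes (panels titled by accession) and the within-mouse difference Mt2 minus Mt1 (rightmost panel, log2 units) in young (blue) and aged (red) mice, 1 point per mouse, with the mean ± SD in black except for the dimmer Mt1 probe. The open symbol is a value not well above background, and the difference was below -0.6 in every young mouse and above 0.1 in every aged mouse.

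Genes with the values most like the mean of Mt1 and Mt2 over the 6 arrays were sought among 12674 other genes that had a symbol and were detected in every mouse. The highest Pearson correlations were those of Mak16 (0.996), Mlip (0.996), Micu2 (0.994), Rnmt (0.994) and Cct2 (0.993). Of the 12674 genes, 100 had a correlation above 0.95 over these 6 arrays. The log2 difference between aged and young mice was smaller for these genes, from 0.35 for Cct2 to 0.93 for Mak16.

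Of the other genes for metallothioneins and zinc handling, 19 of 20 could be tested, and 0 had an adjusted p under 0.05. At an unadjusted p under 0.05 in limma there were 0 higher and 1 lower in aged mice, against 6.07% higher and 8.38% lower of all genes. Mt3, a further metallothionein, had a relative signal of 0.825, 0.854 and 0.768 in young and 1.03, 1.21 and 3.71 in aged mice, a log2 difference of 1.03 (adjusted p = 0.376 from limma). Most of it came from aged mouse 3, and the difference was 0.45 without that mouse. Slc30a2, a vesicular zinc transporter, had a log2 difference of -0.91 (adjusted p = 0.215), and Mtf1 one of 0.27 (adjusted p = 0.478). With the slide row as a block Slc30a2 differed by -0.38. For these 3 genes of the 19 tested the groups did not overlap, against 21.8% of all genes. The median of the list was 0.05.

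Neutrophil markers also differed between the groups. S100a8 and S100a9, calcium-binding proteins of neutrophils, were higher in aged mice with an adjusted p of 0.00602 each in limma. Retnlg was also higher in every aged mouse (log2 difference 3.45, adjusted p = 0.0604). Its signal was well above background on 0 of 3 young arrays, so it passed the filter only through the aged mice. Camp (-0.40, adjusted p = 0.296) and Elane (-0.31, adjusted p = 0.467), of neutrophil granules, were lower in every aged mouse, and Csf3r overlapped between the groups (0.05). The summed relative signal of the 6 tested markers was 157 to 161 in young and 169 to 199 in aged mice, most of it that of Csf3r. Of the 12 markers listed, Ly6g, Mmp8, Mmp9, Cxcr2, Ngp and Mpo were not tested. Their part in the values of Mt1 and Mt2 was not tested.

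Sod1 (NM_011434) encodes the copper-zinc enzyme of the cytosol. Its relative signal was 234, 280 and 271 in young mice and 222, 123 and 216 in aged mice. All aged mice were below all young mice, aged mice 1 and 3 by little and aged mouse 2 by far more. The log2 level was 8.03 ± 0.14 (SD, n = 3) in young and 7.49 ± 0.48 (SD, n = 3) in aged mice. The difference was -0.53 (standard error 0.26, adjusted p = 0.408 from limma). It was -0.25 without aged mouse 2 and -0.23 with the slide row as a block.

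Sod2 (NM_013671), the manganese enzyme of mitochondria, had a relative signal of 231, 278 and 270 in young mice and of 189, 197 and 185 in aged mice. The aged mice were close to each other, within 1.06-fold, and all below the young mice. The log2 level was 8.02 ± 0.14 (SD, n = 3) in young and 7.57 ± 0.04 (SD, n = 3) in aged mice. The difference was -0.44 (standard error 0.15, adjusted p = 0.285 and unadjusted p = 0.0246 from limma). It was between -0.53 and -0.39 when any 1 mouse was left out and -0.45 with the slide row as a block. Both probes are among the brightest, and bright probes as a whole had lower values in aged mice. The median log2 difference was -0.15 over the 829 genes with a mean log2 level of 7 or more, of which 6.51% had a lower value than Sod2. After quantile normalization the difference was -0.39 for Sod1 and -0.30 for Sod2.

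Sod3 (NM_011435), the secreted enzyme, had nearly the same level in both groups. Its relative signal was 5.80, 8.67 and 6.80 in young mice and 7.29, 5.85 and 7.44 in aged mice, and the groups overlapped. The log2 difference was -0.04 (standard error 0.21, adjusted p = 0.947 from limma), and its sign changed with the mice included.

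Copper delivery to Sod1 depends on the chaperone Ccs, and 6 of 7 genes for copper chaperones and transporters could be tested. None had an adjusted p under 0.05 in limma, and 0 had an unadjusted p under 0.05, against 14.4% of all genes. Ccs had a relative signal of 14.3, 14.8 and 17.7 in young and 13.8, 12.1 and 8.69 in aged mice. All aged mice were below all young mice, with a log2 difference of -0.45 (adjusted p = 0.401). It was -0.26 without aged mouse 3 and -0.17 with the slide row as a block. Atp7a, a copper-exporting ATPase, had a log2 difference of 0.32 (adjusted p = 0.505), which was 0.16 without aged mouse 3.

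Among the enzymes that remove hydrogen peroxide, catalase (Cat, NM_009804) resides in peroxisomes. Its relative signal was 5.67, 8.47 and 8.11 in young mice and 8.31, 6.58 and 6.28 in aged mice. The groups overlapped, with a log2 difference of -0.06 (standard error 0.22, adjusted p = 0.913 from limma). A dimmer Cat probe of the same accession differed by 0.34, with relative signals of 0.799 to 1.77 in young and 1.30 to 2.08 in aged mice. The sign of the difference therefore depended on the probe.

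Gpx1 (NM_008160), a selenium-dependent peroxidase of cytosol and mitochondria, had a relative signal of 61.6, 68.8 and 53.2 in young mice and of 77.4, 67.5 and 69.9 in aged mice. Aged mouse 2 was below young mouse 2, so that the groups overlapped. The log2 difference was 0.23 (standard error 0.17, adjusted p = 0.552 from limma).

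Gpx3 (NM_008161), the secreted peroxidase found in plasma, had a relative signal of 18.6, 31.8 and 26.9 in young and 37.6, 43.1 and 22.4 in aged mice. Aged mice 1 and 2 were above every young mouse and aged mouse 3 was not. The log2 difference of 0.40 (standard error 0.31, adjusted p = 0.583 from limma) was 0.68 without aged mouse 3 and 0.18 without young mouse 1.

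The other glutathione peroxidases were lower on average in 4 of 4 tested genes (Gpx2, Gpx4, Gpx7 and Gpx8, between -0.31 and -0.18 on the log2 scale). None had an adjusted p or an unadjusted p under 0.05 in limma, and their groups overlapped. Of all genes, 14.4% had an unadjusted p under 0.05 and 21.8% had groups that did not overlap. Haemoglobin and other erythrocyte markers, which come with red cells that are themselves rich in catalase and Sod1, had a summed relative signal of 642 to 936 in young and 292 to 465 in aged mice. All 7 tested markers of the 12 listed were lower on average. Their part in the values of Sod1, Cat and Gpx1 was not tested.

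Nqo1 (NM_008706), which reduces quinones, had a relative signal of 3.02, 2.44 and 3.01 in young mice and of 4.72, 3.29 and 4.08 in aged mice. Every aged mouse was above every young mouse. The log2 level was 1.49 ± 0.18 (SD, n = 3) in young and 1.99 ± 0.26 (SD, n = 3) in aged mice, a difference of 0.50 (standard error 0.20, adjusted p = 0.322 and unadjusted p = 0.0387 from limma). It lay between 0.38 and 0.64 when any 1 mouse was left out.

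Hmox1 (NM_010442) releases iron, carbon monoxide and biliverdin from haem. Its relative signal was 2.33, 1.0 and 1.06 in young mice and 2.45, 1.78 and 6.81 in aged mice. Aged mouse 3, the highest mouse for Mt1 and Mt2 as well, was far above the others, and young mouse 1 was above aged mouse 2. The log2 difference was 1.20 (standard error 0.56, adjusted p = 0.385 from limma), and 0.63 without aged mouse 3. A dimmer Hmox1 probe of the same accession differed by 0.53, with aged mouse 3 again the highest.

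Macrophages express Hmox1, and their markers also differed between the groups. Of 12 tested markers of 13 listed, 10 were higher on average in aged mice and 2 lower (Csf1r, -0.05, and Itgam, -0.26). An adjusted p under 0.05 was reached by 0 of the 12 in limma and an unadjusted p under 0.05 by 4 (Cd68, C1qb, C1qc and Adgre1, all higher), where 6.07% of all genes were higher at that limit. Their summed relative signal was 53.1 to 57.3 in young and 58.0 to 60.1 in aged mice, of which Itgam and Csf1r made up the largest shares. Cd163 was not tested. The part of these cells in the value of Hmox1 was not tested.

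**Figure D3:**
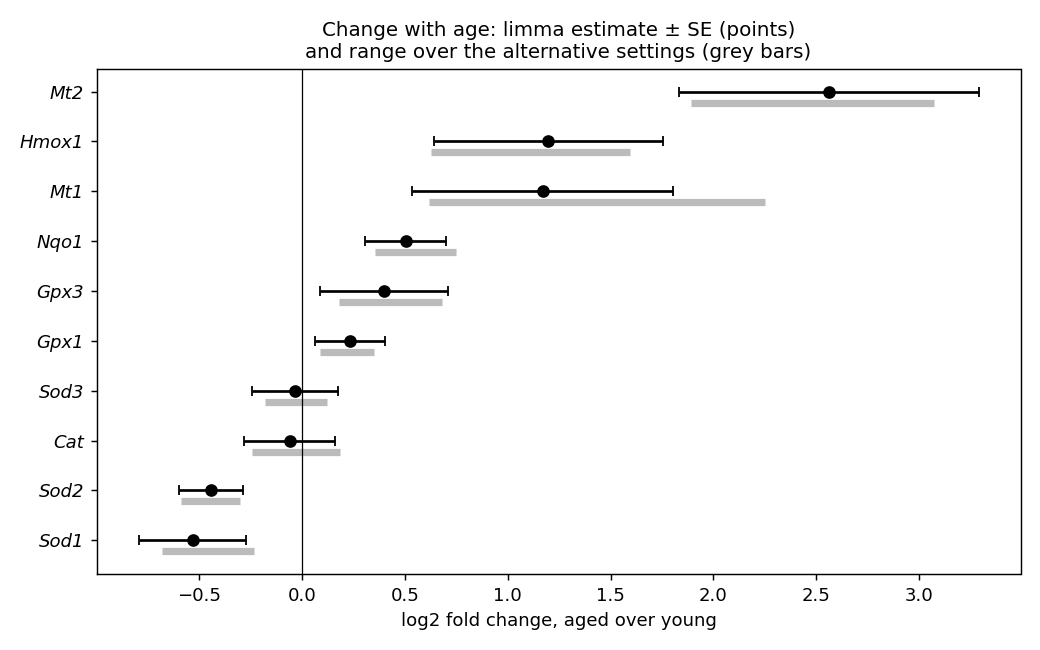
Log2 fold change of aged over young mice (x axis) for each of the 10 genes, with the limma estimate ± standard error as black points and bars. Grey bars give the lowest and highest estimate over 18 alternative settings, which crossed 0 for Sod3 and Cat and for no other gene of the 10. The upper end for Mt1 comes from averaging in the dimmer probe, which was not well above background in young mouse 3.

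Related genes were read from 9 lists with 146 entries, of which 131 could be tested. None passed an adjusted p of 0.05 in limma, and 16 had an unadjusted p under 0.05 (7 higher and 9 lower), which is 12.2% against 14.4% of all genes. The groups did not overlap for 26 genes (11 higher and 15 lower), or 19.8% against 21.8% of all genes.

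Peroxiredoxins and thioredoxins reduce peroxides, and sulfoxide reductases repair oxidized methionine. All 24 genes of this list could be tested, with 12 higher and 12 lower on average. The methionine sulfoxide reductase Msrb1, a selenoprotein, had the largest difference relative to its error among the named genes of this list. Its relative signal was 196, 194 and 196 in young mice and 92.6, 99.5 and 89.9 in aged mice. The values within each group were nearly equal, and the log2 difference was -1.06 (standard error 0.14, adjusted p = 0.0569 from limma). It passed the threshold with normexp background correction (adjusted p = 0.0146) and with a mean-variance trend (0.0158), and ranged up to an adjusted p of 0.255 over the alternatives. Msrb2, of mitochondria, differed by -0.62 (adjusted p = 0.295), and Glrx5, a mitochondrial glutaredoxin of iron-sulfur cluster assembly, by -0.58 (adjusted p = 0.209).

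Srxn1, the sulfiredoxin that reactivates peroxiredoxins and a known Nrf2 target, had a relative signal of 20.9, 17.2 and 11.6 in young mice and of 22.6, 28.6 and 147 in aged mice. Its log2 difference of 1.50 (adjusted p = 0.382 from limma) was carried by aged mouse 3 and was 0.66 without it, and 0.49 with the slide row as a block. Aged mouse 3 was thus the highest of the 6 mice for Mt1, Mt2, Mt3, Hmox1 and Srxn1. For Nqo1 and Gpx1 the highest was aged mouse 1, and for Gpx3 it was aged mouse 2. These genes were set side by side after their values were seen.

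Glutathione is made and kept reduced by the products of a list of which 15 of 17 genes could be tested. The log2 difference was 0.58 for Pgd (adjusted p = 0.223 from limma), an enzyme of the pentose phosphate pathway that yields NADPH, 0.38 for glutathione synthetase (Gss, adjusted p = 0.392) and -0.33 for Chac2 (adjusted p = 0.447), which degrades glutathione. These were the genes of the list whose groups did not overlap (2 higher and 1 lower of 15 tested), against 21.8% of all genes. The rate-limiting ligase subunits Gclc (0.06) and Gclm (0.19) overlapped between the groups.

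Of the glutathione S-transferases, which conjugate electrophiles, 22 of 24 could be tested, 14 higher and 8 lower on average. Gstm2 had a relative signal of 36.2, 29.0 and 50.2 in young mice and of 98.4, 65.5 and 55.0 in aged mice. All aged mice were above all young mice, with a log2 difference of 0.92 (adjusted p = 0.255 from limma). Its other probes differed by 0.73 and 2.03. Members of this family are similar in sequence, so that their probes may share signal. Mgst3 (-0.46, adjusted p = 0.364) and Gstz1 (-0.23, adjusted p = 0.519) were lower in every aged mouse. The Mgst3 difference was -0.22 with the slide row as a block.

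Nrf2 itself (Nfe2l2) differed by 0.10 on the log2 scale and its inhibitor Keap1 by -0.20, and the groups overlapped for both. All 12 genes of the Nrf2 regulators could be tested. Cul3, the ubiquitin ligase scaffold that acts with Keap1, had a relative signal of 12.0, 11.1 and 11.6 in young mice and of 8.50, 8.73 and 8.18 in aged mice. This was a log2 difference of -0.45 (adjusted p = 0.255 from limma), with every aged mouse lower.

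Genes for quinone, haem and iron handling numbered 15, of which 13 could be tested. The iron exporter ferroportin (Slc40a1) had a relative signal of 10.6, 19.9 and 14.4 in young mice and of 8.72, 3.56 and 3.35 in aged mice, a log2 difference of -1.62 (adjusted p = 0.186 from limma). It was -2.07 without aged mouse 1 (adjusted p = 0.0469) and -0.73 with the slide row as a block (adjusted p = 0.481), and the adjusted p was 0.485 without aged mouse 3. The transferrin receptor (Tfrc) had a relative signal of 7.84, 9.32 and 12.0 in young mice and of 2.32, 4.94 and 4.56 in aged mice. Its log2 difference was -1.36 (adjusted p = 0.171), and all 3 Tfrc probes were lower (-1.44 to -1.27). With the slide row as a block the Tfrc difference was -2.05. Nqo2, the paralogue of Nqo1, differed in the opposite direction to Nqo1, by -0.78 (adjusted p = 0.152), although a second Nqo2 probe differed by 0.22. The ferritin chains Fth1 (-0.13) and Ftl1 (0.08) and the constitutive haem oxygenase Hmox2 (0.01) overlapped between the groups.

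Oxidant-generating enzymes are the sources of the superoxide, peroxide and nitric oxide that the listed genes deal with. Of 21 genes 16 could be tested, 8 higher and 8 lower on average. The NADPH oxidase components Rac2 (1.01, adjusted p = 0.138 from limma) and Ncf4 (0.69, adjusted p = 0.248), both of leukocytes, were higher in every aged mouse. The nitric oxide synthases Nos2 (-1.19, adjusted p = 0.151) and Nos3 (-0.43, adjusted p = 0.416) were lower in every aged mouse. The Nos3 difference was -0.23 without aged mouse 3, and that of Ncf4 was 0.35 with the slide row as a block. Nos3 is the synthase of endothelium. Endothelial markers had a summed relative signal of 100 to 132 in young and 70.7 to 91.2 in aged mice, and 7 of 10 were lower on average. Their part in the value of Nos3 was not tested.

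**Figure D4:**
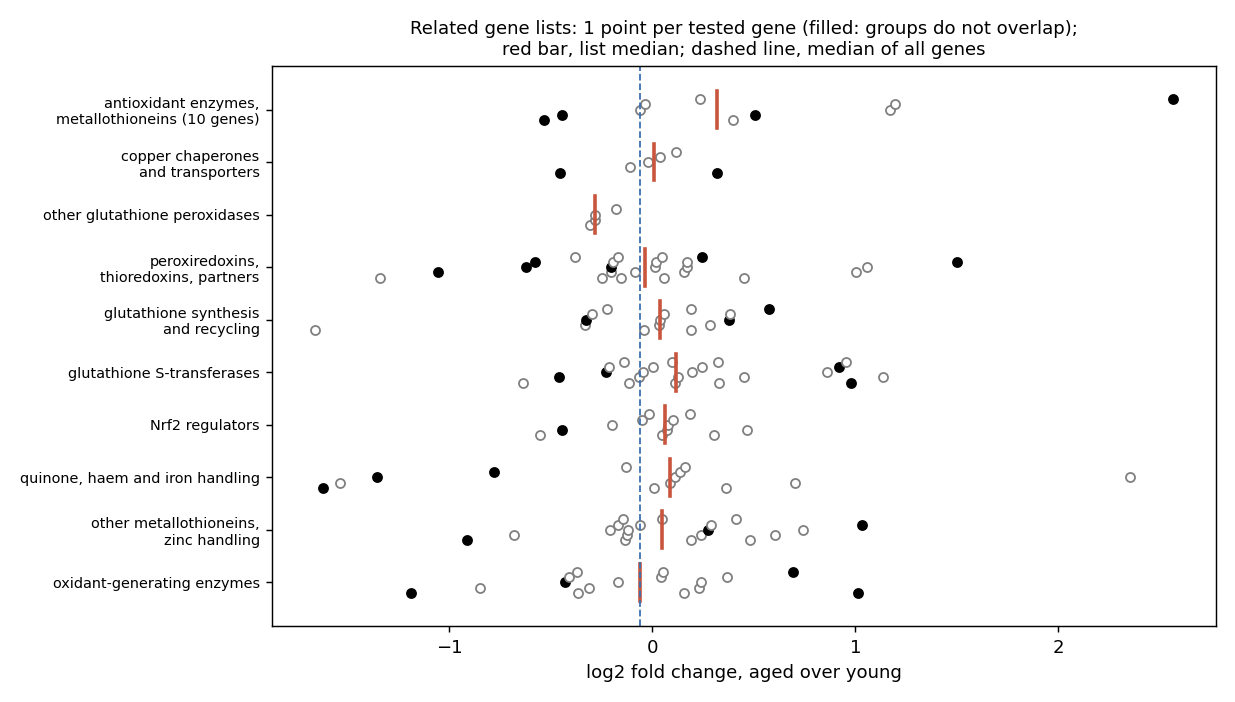
Log2 fold change of aged over young mice (x axis) of every tested gene in the 10 listed genes (top row) and in the 9 related lists (other rows). Filled points are genes whose groups did not overlap, red bars are list medians, and the dashed line is the median of all genes tested, -0.06. List medians lay between -0.28 and 0.12, and that of the 10 genes was 0.32.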

How the data were processed

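Gastrocnemius RNA of 3 young and 3 aged mice was measured on single-colour arrays, 1 per mouse. The authors deposited the output of Agilent Feature Extraction (11.0.1.1 in the file headers, 9.5 per the labels), whose processed signal is an intensity corrected by the scanner software for background and spatial trend, with no scaling across arrays. The series matrix was equal to it (largest difference 0). The methods refer to an earlier description for the arrays and name no test. Here, outlier spots (161 to 212 on an array) were dropped, spots of one probe were averaged on the log2 scale, and each array was centred on its own 75th percentile. Of 55681 probes, 28331 were named by matching accessions without version to RefSeq transcripts (GRCm38.p6). The array itself was designed on another build, so probe positions are not given. Probes well above background on at least 3 of 6 arrays were kept (20901 genes, 13844 with a symbol), and the kept probe with the highest mean represented a gene. Levels of different probes were not used to say which mRNA was more abundant. The summed signals of lists and the Mt2 minus Mt1 difference do combine different probes, and the brightest probes weigh most in a sum. The background flags and the number of arrays limit the precision.

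The comparison used lmFit and eBayes (limma 3.58.1, R 4.3.3), and p-values were adjusted by Benjamini-Hochberg over all genes tested. The mice are separate samples by their labels. On simulated arrays of the 20901 genes the fit recovered 93% of 200 genes changed by a log2 value of 3, 67% at 2 and 0% at 1. It also called 5, 8 and 0 unchanged genes. The 200 genes were drawn at random from all genes. The log2 range of the young mice was at the 98.6th percentile for Mt2, the 94.4th for Mt1 and the 90.85th for Hmox1. The recovered shares therefore do not apply to genes as variable as these. For other genes they hold only for this setting, in which 200 genes were changed and each gene kept its observed spread. The number of genes changed in the real arrays is not known, so they do not give the share recovered there. The members, lists and tests were chosen with earlier results of these data known. The genes named were the 10 members, from each related list the genes past the threshold or else up to 4 with the largest difference, no overlap and a probe above background on all arrays, and the 5 genes most like the mean of Mt1 and Mt2. Other genes were named after their values were seen. Marker lists covered myofibres, macrophages, neutrophils, adipocytes, erythrocytes, endothelium, fibroblasts, lymphocytes and Schwann cells. Other settings tried were normexp (offset 50, on median spot signals), quantile normalization, median scaling, the percentile over detected probes, no filter or one on all 6 arrays, averaging a gene's probes, the series matrix, a mean-variance trend, the slide row and the replicate number as a block, slide row 1 alone, and each mouse left out.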

Additional observations from a re-analysis of the deposited data

How the results depend on the processing

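None of the 10 genes had an adjusted p under 0.05 in limma under any of the 18 alternatives, and the direction of 8 of them was the same in all. The series matrix, the mean-variance trend and the replicate block gave the same log2 differences as the main fit, so they could not change a direction. The slide row as a block and row 1 alone gave the same difference as each other. For Mt2, Nqo1, Sod1 and Sod2, whose groups did not overlap, leaving out 1 mouse could not change the direction either. Sod3 was higher in aged mice with the slide row as a block and in row 1 alone (0.060 in both), and between -0.17 and 0.12 without 1 mouse. Cat was higher with normexp (0.12), with the mean of all probes (0.14), and with the slide row as a block or row 1 alone (0.19 in both), and between -0.24 and 0.046 without 1 mouse. The cause was not tested. The median of the 10 genes was 0.17 after median scaling, which moved the median of all genes from -0.06 to -0.21, and 0.21 to 0.37 without 1 mouse. The count of all genes past the threshold, 53, was 8 with no filter on dim probes, 35 with probes above background on all 6 arrays, 0 in row 1 alone, and 1 to 199 without 1 mouse, the lowest without aged mouse 3 and the highest without aged mouse 1. With the replicate number as a block it was 5. Same-numbered mice deviated from their group means with correlations of -0.27 to 0.028 over genes, and differently numbered mice with -0.21 to 0.35. With 3 mice in each group these correlations cannot show whether the number pairs the mice. Of the related genes, 0 passed the threshold, 1 did with normexp and with the mean-variance trend (Msrb1 in both), and 0 to 2 without 1 mouse (Slc40a1 and Slc48a1 without aged mouse 1). All 23 named genes of the related lists kept their direction. They were chosen for groups that did not overlap. Leaving out 1 mouse, or comparing within row 1, could therefore not change their direction.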

Other observations

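Other cell markers were read as values only. Of the fibroblast markers, 9 of 10 were lower on average in aged mice, with a summed relative signal of 571 to 644 in young and 289 to 412 in aged mice. Of the Schwann cell markers, 6 of 9 tested were lower, and Prx had an adjusted p under 0.05 in limma. Adipocyte markers were lower in 7 of 9 and their sums overlapped (239 to 443 in young and 267 to 407 in aged mice). Lymphocyte markers were lower in 4 of 5 with sums of 2.91 to 3.35 in young and 2.67 to 3.30 in aged mice. The other one, Ptprc, was higher on average by a log2 difference of 1.01 (adjusted p = 0.269 from limma), with overlapping groups. For comparison, 43.1% of all genes had a higher mean in aged mice.

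Several genes of the related lists had a wide spread within groups, of which Prdx1 and Blvrb are described here. Chac1, for example, was more spread among aged mice (SD 2.39 on the log2 scale, against 1.87 for Prdx1). Prdx1, a peroxiredoxin, had a log2 difference of -1.34 with overlapping groups (adjusted p = 0.499 from limma), with a log2 level of 2.16 in aged mouse 2 and of 5.22 to 5.79 in the other mice. The difference was 2.35 (adjusted p = 0.268) for Blvrb, biliverdin reductase B, also with overlapping groups and well above background on 2 of 3 young arrays. Prdx1, Blvrb and Chac1 were chosen after their values were seen.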
